A study of Mus musculus with 6 samples.

Results

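The ATF4 stress response genes and the aminoacyl-tRNA synthetase genes were examined in skeletal muscle of Rpt3-/- mice and of Rpt3+/+ mice. The set was a list of 42 named genes, 24 for the stress response and 18 for cytosolic synthetases, and a member was kept where a probe named for it was above the local background on at least 3 of the 6 arrays. This left 39 members, 21 stress response genes and all 18 synthetases, of 14732 tested genes. Slc7a5 was above background on 0 of the 6 arrays and Slc7a11 on 1, so neither was tested, and Nupr1 has no value here because its probe was named for more than one gene.

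Muscle RNA of female mice was hybridised to CodeLink bioarrays of the mouse genome, with 3 Rpt3-/- and 3 Rpt3+/+ samples on 1 array each. The labels do not say that each sample came from its own mouse, so p-values measure the spread between these samples, which may be technical. Rpt3-/- mice carried a floxed Rpt3 gene (also known as Psmc4, an ATPase subunit of the 19S regulatory particle of the proteasome) and Mlc1f-Cre, whose promoter is restricted to fast-twitch skeletal muscle fibers in adults. Slow-twitch fibers and cells other than muscle may therefore have kept the gene, which was not tested here. Rpt3+/+ mice carried Mlc1f-Cre without the floxed allele in the description of the mouse lines, whereas the labels give both groups the same strain name, with Mlc1f-Cre and floxed Rpt3. All mice were 6 weeks old. The labels name the tibialis anterior muscle where the study's text names the gastrocnemius. Whole muscle was used, in which fewer cells of a type and less RNA per cell cannot be told apart.

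When the translation factor eIF2alpha is phosphorylated by one of its kinases, most translation slows while that of the Atf4 mRNA rises. The ATF4 protein then binds composite C/EBP-ATF elements and induces genes for amino acid synthesis and uptake, aminoacyl-tRNA synthetases, and further stress factors such as ATF3, CHOP (the product of Ddit3), TRIB3 and GADD34, the phosphatase subunit that reverses the eIF2alpha mark. Aminoacyl-tRNA synthetases attach each amino acid to its tRNA, and the response is known in muscle from mitochondrial disease and amino acid shortage. Much of its first step is translational, which an mRNA array does not measure.

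In Rpt3-/- muscle the response genes did not move as 1 block. Ppp1r15a (GADD34), Atf3 and Ddit3 were higher, by 2.74-, 1.75- and 1.43-fold, while Atf4, Trib3, Chac1, Asns and Sesn2 did not pass the test. Among the synthetases Vars, Lars, Kars and Hars were higher by 1.44- to 1.75-fold, and Cars and Yars were lower by 1.80- and 1.71-fold. Shmt2 was lower by 1.48-fold. Of the 39 members 7 were higher (17.9%) and 3 lower (7.69%) at a limma adjusted p under 0.05, beside 12.7% and 6.56% of all 14732 tested genes, and the median log2 fold change was -0.02 over the members and -0.01 over all genes. At an unadjusted limma p under 0.05, 10 of the 39 members were higher and 6 lower, beside 2823 and 1894 of all 14732 tested genes. Counts in each list below are to be read beside these numbers for all tested genes.

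Promoter sequence was read to show which members hold the element that ATF4 is known to bind. The element was searched as TGATGNAA on both strands, over 250 bases before and 50 bases after each start in RefSeq (GRCm38.p6), where 32 of the 42 members had an entry. It was found in 4.51% of 27025 genes with an entry and in 11 of the 32 members (34.4%), 9 of them tested. The windows below, written along the gene's strand, have the matched bases in capitals, and were taken to set the members with a match that changed (Atf3 and Yars) beside members with a match that did not pass the test (Asns, Trib3, Chac1, Iars and Tars).
Atf3: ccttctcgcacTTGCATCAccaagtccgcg
Yars: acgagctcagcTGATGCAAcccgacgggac
Asns: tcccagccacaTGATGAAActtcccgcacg
Trib3: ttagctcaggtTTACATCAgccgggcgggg
Chac1: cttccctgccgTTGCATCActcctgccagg
Iars: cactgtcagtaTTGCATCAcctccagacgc
Tars: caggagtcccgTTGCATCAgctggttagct
The Atf3 window lies at chr1:191183425-191183454 on the minus strand, with its match 110 bases before the start. The Yars window lies at chr4:129189895-129189924 on the plus strand, and its match begins at base 4 of the transcript. The others are at chr6:7693214-7693243 (Asns, minus strand), chr2:152344028-152344057 (Trib3, minus), chr2:119351038-119351067 (Chac1, plus), chr13:49682126-49682155 (Iars, plus) and chr15:11399655-11399684 (Tars, minus). Other members with a match are not shown. Of the 9 tested members with a match, Atf3 was higher, Yars was lower and 7 did not pass, so that members with the same letters stood on both sides. A match is a description of the letters in this window and was not tested for binding.

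A second pattern, TNACGTCA, which resembles the cAMP response element bound by ATF and CREB factors, was chosen after the promoters had been read. It was found on either strand in 3.36% of genes with an entry and in 2 of the 32 members with one (6.25%), Atf3 and Ppp1r15a. These had the 2 highest fold changes among the tested stress response genes. Because the pattern was chosen after the promoters had been read, no conclusion is drawn from this, and binding was not tested.
Atf3: tattaatagcaTTACGTCAgcctgggattg
Ppp1r15a: cgcctctccggTGACGTCAgcacagcgccg
These windows lie at chr1:191183325-191183354 and chr7:45526262-45526291, both on the minus strand, with matches 10 and 12 bases before the start.

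Psmc4 itself was lower in Rpt3-/- muscle, at 10.01, 9.78 and 9.85 log2 intensity in Rpt3-/- and 11.16, 10.91 and 11.06 in Rpt3+/+ samples (log2 fold change -1.17 ± 0.13 SE, limma adjusted p = 0.00031). A second, dim probe named for Psmc4 was above background on 2 arrays of each group and gave -0.23. From 69.2% to 72.7% of 34967 transcript probes were above background in Rpt3-/- samples, against 57.0% to 74.5% in Rpt3+/+ samples, with the lowest share on Rpt3+/+ 2, whose median background-subtracted intensity was also the lowest (52.7, against 80.2 to 114.5 on the other arrays). Markers of macrophages were higher with the genotype. Of 14 tested macrophage markers 9 were higher and 0 lower, and their summed intensity was 7195 to 10519 in Rpt3-/- and 3198 to 3875 in Rpt3+/+ muscle. Among the 11 above background on all 6 arrays, 6 were higher and 0 lower. Aif1, Fcer1g and Mpeg1, all called higher, were near background on some Rpt3+/+ arrays. Adgre1, Itgam and Ptprc were near background and Cd68 and Csf1r had no named probe. Of 9 fibroblast markers 2 were higher (28052 to 29848 in Rpt3-/-, 19698 to 23004 in Rpt3+/+), of 6 endothelial markers 0 passed in limma, with 1 lower unadjusted (1938 to 2101 in Rpt3-/-, 2110 to 2493 in Rpt3+/+), and of 12 fast fiber markers, the labelled tissue, 1 was higher and 2 were lower (232573 to 242192 in Rpt3-/-, 240231 to 260324 in Rpt3+/+). The lowest Rpt3+/+ sum of the fast fiber markers (240231) belongs to Rpt3+/+ 3, where Acta1 had no value. Acta1 stood at 14.82 log2 intensity on the other Rpt3+/+ arrays, so that sum is too low beside the others. The overlap of the 2 ranges rests on that missing value, so it does not show that the sums were alike. Ckm, Acta1, Tnnc2 and Atp2a1 each stood at 14.86 log2 intensity on at least 1 array, the highest value of these markers. Quantile normalization makes the highest values common to all arrays. A fast fiber marker there that was not called may therefore still differ. The part of these cell types in the changes below was not tested.

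**Figure D1:**
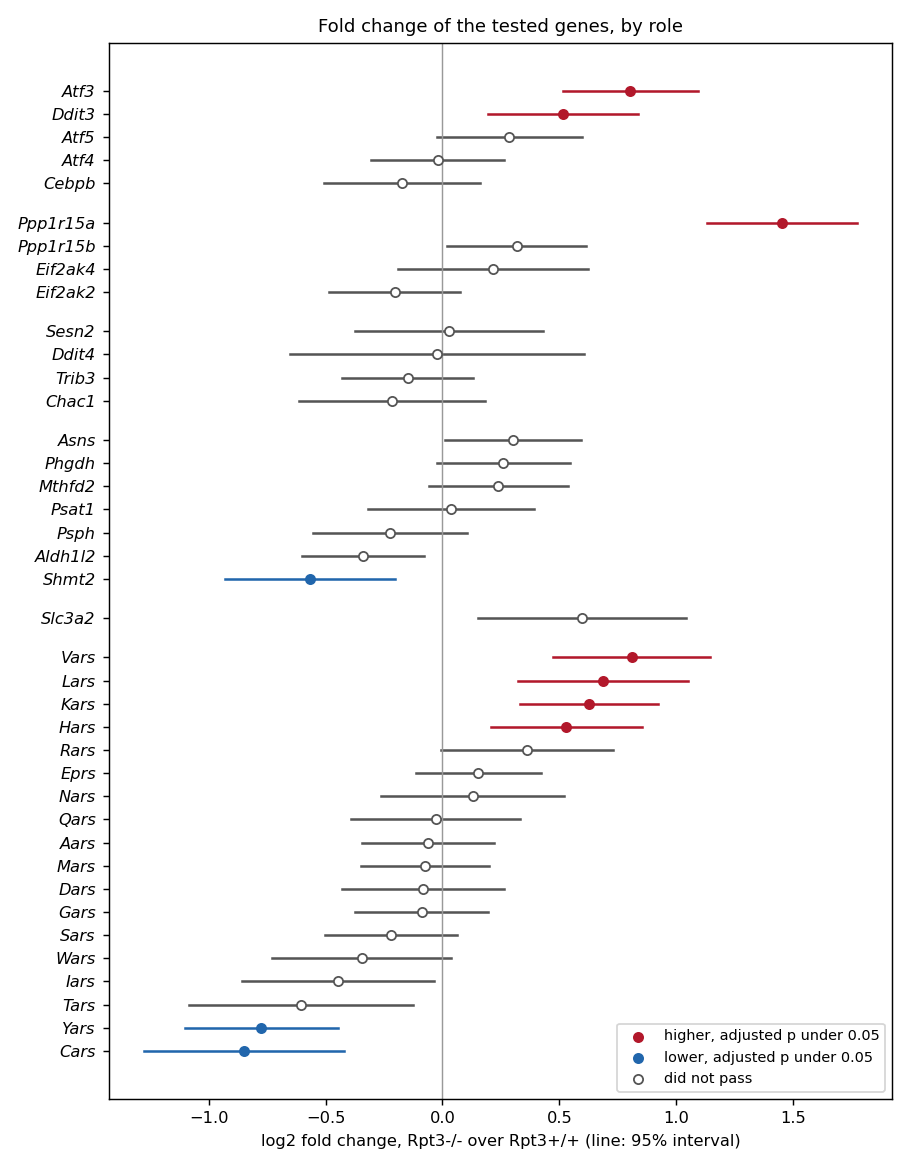
Log2 fold change of each of the 39 tested members, Rpt3-/- over Rpt3+/+ (x axis), grouped by role from transcription factors at the top to synthetases at the bottom; points are limma estimates, lines are 95% intervals, red and blue mark members with an adjusted p under 0.05. The estimates run from -0.85 for Cars to 1.45 for Ppp1r15a, with 7 red, 3 blue and 29 open points, and the point of Phgdh rests on signal near background in Rpt3+/+.

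Among the transcription factors Atf3 and Ddit3 rose and Atf4 mRNA did not pass the test. Atf4, the regulator for which the response is named, had log2 intensities of 12.28, 12.44 and 12.53 in Rpt3-/- and 12.45, 12.50 and 12.35 in Rpt3+/+ muscle. The groups overlapped, with a log2 fold change of -0.02 (95% interval -0.30 to 0.26, adjusted p = 0.94). This value depended on the scaling. In the authors' value table Atf4 stood at 5655, 5960 and 6330 intensity in Rpt3-/- and 5561, 4563 and 4426 in Rpt3+/+ muscle, without overlap, and the log2 fold change there was 0.31 (adjusted p = 0.16). When the control spots were kept in the quantile normalization, a choice made after the data were seen, it was 0.30 (adjusted p = 0.16). The median of the 640 fiducial control spots lay at 4608 to 4754 background-subtracted intensity for Rpt3-/- and at 4569 to 4714 for Rpt3+/+ samples, and Atf4 itself lay at 5975 to 6960 for Rpt3-/- and 4235 to 5513 for Rpt3+/+ samples before normalization. No setting tried gave Atf4 an adjusted p under 0.05.

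Atf3, a stress-induced factor of the same basic leucine zipper family, had log2 intensities of 8.10, 7.94 and 8.17 in Rpt3-/- and 7.16, 7.24 and 7.39 in Rpt3+/+ muscle. All Rpt3-/- values lay above all Rpt3+/+ values, and the log2 fold change was 0.80 ± 0.13 SE (adjusted p = 0.0022). Ddit3, which encodes CHOP, a factor linked to cell death under lasting stress, had 9.21, 9.14 and 9.31 in Rpt3-/- and 8.55, 8.95 and 8.60 in Rpt3+/+ muscle. Its groups did not overlap either, though Rpt3+/+ 2 stood near the Rpt3-/- arrays (0.52 ± 0.14 SE, adjusted p = 0.031). The call for Ddit3 was close to the threshold, since the adjusted p was 0.093, 0.063 and 0.12 without Rpt3-/- 1, 2 and 3 and 0.14 without Rpt3+/+ 3. Atf5, a related factor also under translational control, was at 0.29 log2 fold change (adjusted p = 0.19), and Cebpb, a partner of ATF4 at its elements, at -0.17 (adjusted p = 0.48).

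Ppp1r15a had the highest fold change of the 39 members. It encodes GADD34, the inducible subunit that brings protein phosphatase 1 to eIF2alpha. Its log2 intensities were 9.42, 9.06 and 9.23 in Rpt3-/- and 7.94, 7.78 and 7.64 in Rpt3+/+ muscle. The groups lay more than 1 log2 unit apart with no overlap (1.45 ± 0.14 SE, adjusted p = 0.00015), and the call held without any single array and under each scaling, the centring on Actb included (0.79, adjusted p = 0.0043). Ppp1r15b, the constitutive counterpart, had 8.85, 8.63 and 8.57 in Rpt3-/- and 8.39, 8.46 and 8.25 in Rpt3+/+ muscle, which did not overlap but did not pass (0.32, adjusted p = 0.13). Among all tested genes 21.2% had all Rpt3-/- values above all Rpt3+/+ values and 15.6% had them below, against 13 (33.3%) and 6 (15.4%) of the 39 members. The 13 include Phgdh, which was near background on every Rpt3+/+ array.

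Of the kinases, Eif2ak4 (GCN2, which senses uncharged tRNA) showed a log2 change of 0.21 (adjusted p = 0.46). Eif2ak2 (PKR, which senses double-stranded RNA) had probes that disagreed. The brighter probe had 7.61, 7.67 and 7.77 in Rpt3-/- and 7.90, 7.77 and 7.99 in Rpt3+/+ muscle (-0.20, adjusted p = 0.31), while the other had 7.23, 6.90 and 7.26 in Rpt3-/- and was near background on all 3 Rpt3+/+ arrays. Set against the lowest signal above background on those arrays, the second probe was at least 1.55-fold higher in Rpt3-/- muscle (adjusted p = 0.0040 among all probes). That probe entered the test through the Rpt3-/- arrays alone, where it is high. No direction is given for Eif2ak2. Of 12 further genes of the pathway's core (eIF2 and eIF2B subunits, other kinases and GCN2 partners), 1 was higher and 0 were lower in limma (3 and 0 unadjusted). This was Eif2b4, a subunit of the exchange factor that phosphorylated eIF2alpha blocks (11.50 ± 0.19 in Rpt3-/- and 10.51 ± 0.03 in Rpt3+/+ muscle, SD, n = 3 each, adjusted p = 0.00087). Eif2ak3, the kinase PERK of the endoplasmic reticulum, had a log2 fold change of 0.33 and did not pass.

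**Figure D2:**
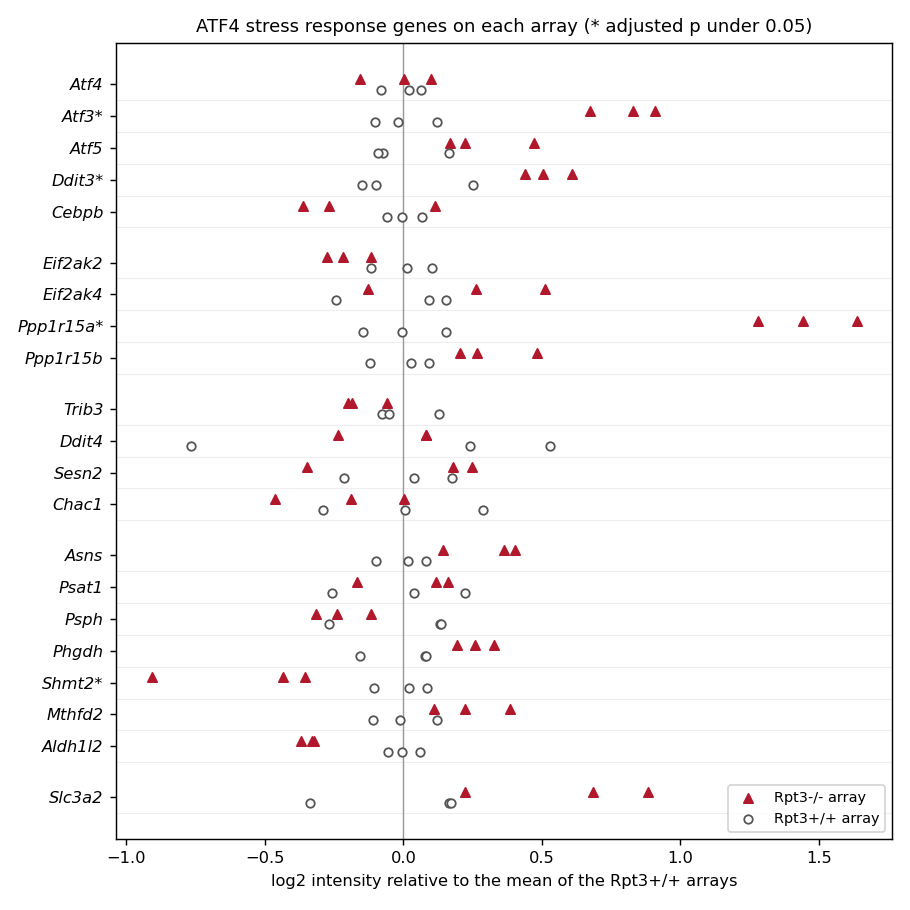
Log2 intensity of the 21 tested stress response genes on each array, relative to the mean of the Rpt3+/+ arrays of that gene (x axis); triangles are Rpt3-/- arrays, circles are Rpt3+/+ arrays, and an asterisk marks an adjusted p under 0.05. The triangles of Ppp1r15a, Atf3 and Ddit3 lie to the right of the circles, those of Shmt2 to the left, and those of Atf4, Trib3 and Chac1 among them.

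Of the 4 stress effector genes 0 passed the test in limma, and 0 had an unadjusted p under 0.05 in limma or in the study's unpaired test. Trib3, a pseudokinase that is among the most inducible ATF4 and CHOP targets, had log2 intensities of 7.23, 7.09 and 7.10 in Rpt3-/- and 7.21, 7.24 and 7.42 in Rpt3+/+ muscle (-0.15, 95% interval -0.43 to 0.13, adjusted p = 0.46). Chac1, which breaks down glutathione, had 7.16, 7.63 and 7.44 in Rpt3-/- and 7.91, 7.34 and 7.63 in Rpt3+/+ muscle (-0.22, interval -0.61 to 0.18, adjusted p = 0.45). In both genes the groups overlapped. Ddit4 and Sesn2, both brakes on mTORC1, had log2 fold changes of -0.02 and 0.03. Ddit4 spread over 9.49, 8.20 and 9.20 in Rpt3+/+ muscle, the widest spread among the members, and its interval ran from -0.65 to 0.60.

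The amino acid and one-carbon enzymes had 0 of 7 genes higher and 1 lower in limma, beside 12.7% and 6.56% of all tested genes. At an unadjusted p under 0.05, 1 was higher and 2 were lower (2 and 2 in the study's unpaired test, unadjusted). Asns, which makes asparagine and is a standard readout of ATF4, had 7.57, 7.32 and 7.54 in Rpt3-/- and 7.26, 7.19 and 7.07 in Rpt3+/+ muscle. Its groups did not overlap, but the difference of 0.30 (interval 0.01 to 0.59) did not pass (adjusted p = 0.14). Of the serine synthesis enzymes, Psat1 stood at a log2 fold change of 0.04 and Psph at -0.22. Phgdh was near background on all 3 Rpt3+/+ arrays and entered the test through the Rpt3-/- arrays alone. Set against the lowest signal above background on the Rpt3+/+ arrays, its Rpt3-/- mean was 1.14-fold higher. Its interval ran from -0.03 to 0.55 and it did not pass in limma (adjusted p = 0.20), so no direction is given for Phgdh.

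Shmt2, the mitochondrial serine hydroxymethyltransferase, fell in Rpt3-/- muscle. It had 9.22, 9.78 and 9.70 in Rpt3-/- and 10.03, 10.15 and 10.22 in Rpt3+/+ muscle, with all Rpt3-/- values lower and Rpt3-/- 1 the lowest (-0.57 ± 0.16 SE, adjusted p = 0.035). The call was lost without Rpt3-/- 1 (-0.39, adjusted p = 0.12), Rpt3-/- 3 (adjusted p = 0.068) or Rpt3+/+ 3 (adjusted p = 0.14), and with each array centred on its median (-0.36, adjusted p = 0.16). The next enzymes of that mitochondrial route, Mthfd2 and Aldh1l2, had log2 fold changes of 0.24 (adjusted p = 0.25) and -0.34 (adjusted p = 0.071). Of 6 further tested serine, glycine and folate enzymes 2 were lower and 0 higher in limma (2 and 1 unadjusted), Dld (-1.25, adjusted p = 0.0061), a shared subunit of the glycine cleavage system and of pyruvate dehydrogenase, and Shmt1 (-0.79, adjusted p = 0.0089), the cytosolic counterpart of Shmt2. Without Rpt3-/- 1 or Rpt3+/+ 3 the count of lower genes was 1. Slc3a2, the common heavy chain of several amino acid exchangers and the 1 transporter tested, had 9.07, 9.53 and 9.73 in Rpt3-/- and 8.51, 9.01 and 9.02 in Rpt3+/+ muscle, did not overlap and did not pass (0.60, adjusted p = 0.064). It passed without Rpt3-/- 1 (0.77, adjusted p = 0.039) or without Rpt3+/+ 2 (0.68, adjusted p = 0.034).

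Of 18, 4 were higher and 2 lower (22.2% and 11.1%, beside 12.7% and 6.56% of all tested genes), the median log2 fold change was -0.07, and 11 of the 18 estimates were negative. Vars, the valyl-tRNA synthetase, had the highest fold change, with 8.48, 8.62 and 8.86 in Rpt3-/- and 7.64, 7.99 and 7.89 in Rpt3+/+ muscle (0.81 ± 0.15 SE, adjusted p = 0.0046). Kars, the lysyl-tRNA synthetase, which also serves mitochondria, had 11.10, 11.33 and 11.31 in Rpt3-/- and 10.48, 10.67 and 10.71 in Rpt3+/+ muscle (0.63 ± 0.13 SE, adjusted p = 0.0087). In both genes the groups were clear of each other, and both calls held without any single array.

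Lars and Hars were higher with less margin. Lars, the leucyl-tRNA synthetase and a leucine sensor for mTORC1, had 8.20, 8.33 and 8.46 in Rpt3-/- and 7.35, 7.92 and 7.65 in Rpt3+/+ muscle (0.69 ± 0.16 SE, adjusted p = 0.015). Its other probe gave 0.24 (adjusted p = 0.41 among all probes), the mean of both gave 0.46 (adjusted p = 0.075), and the call was also lost without Rpt3-/- 3 (adjusted p = 0.073) or Rpt3+/+ 3 (adjusted p = 0.062). Hars, the histidyl-tRNA synthetase, had 9.87, 9.98 and 10.18 in Rpt3-/- and 9.30, 9.66 and 9.47 in Rpt3+/+ muscle, without overlap (0.53 ± 0.14 SE, adjusted p = 0.028). The adjusted p for Hars was 0.053, 0.071 and 0.12 without Rpt3-/- 1, 2 and 3 and 0.11 without Rpt3+/+ 3.

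Yars and Cars were lower. Yars, the tyrosyl-tRNA synthetase, had 7.66, 7.75 and 7.84 in Rpt3-/- and 8.29, 8.76 and 8.53 in Rpt3+/+ muscle, and every Rpt3-/- value was below every Rpt3+/+ value (-0.78 ± 0.15 SE, adjusted p = 0.0050). It kept its call without any single array and under each scaling tried. Cars, the cysteinyl-tRNA synthetase, had 7.19, 7.13 and 7.43 in Rpt3-/- and 7.68, 8.45 and 8.17 in Rpt3+/+ muscle, with Rpt3+/+ 1 nearest to the Rpt3-/- arrays (-0.85 ± 0.19 SE, adjusted p = 0.012). Its adjusted p was 0.062 without Rpt3-/- 1 and 0.057 without Rpt3+/+ 3.

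**Figure D3:**
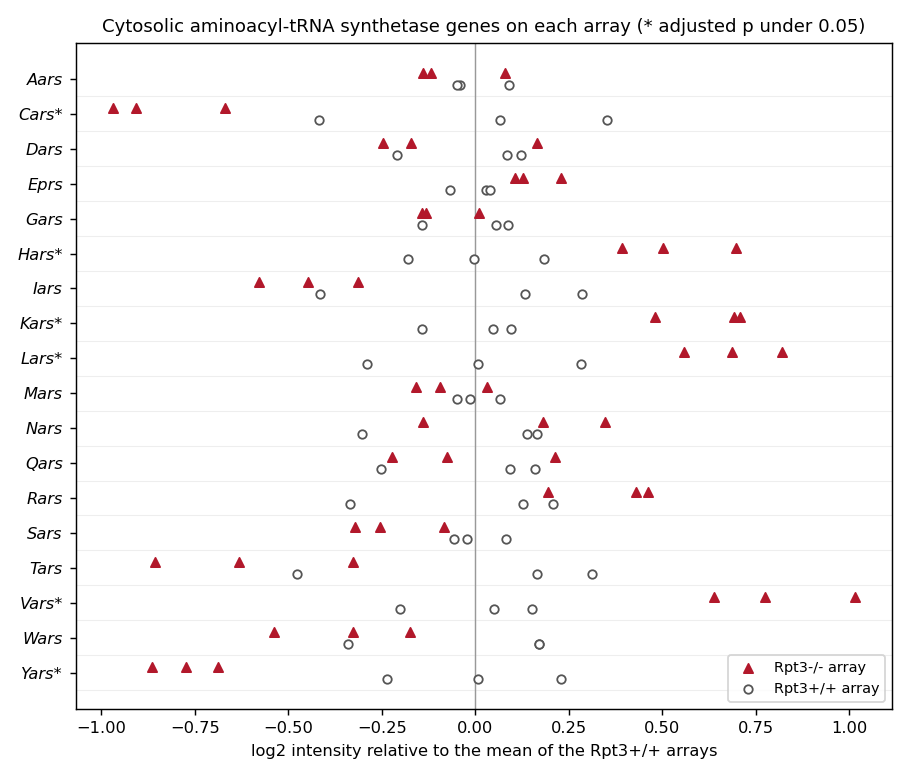
Log2 intensity of the 18 cytosolic aminoacyl-tRNA synthetase genes on each array, relative to the mean of the Rpt3+/+ arrays of that gene (x axis); triangles are Rpt3-/- arrays, circles are Rpt3+/+ arrays, and an asterisk marks an adjusted p under 0.05. Triangles lie right of the circles for Hars, Kars, Lars and Vars and left of them for Cars and Yars, and the groups overlap in most of the others.

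The remaining 12 synthetases did not pass. Tars (threonyl), Iars (isoleucyl) and Wars (tryptophanyl) had log2 fold changes of -0.60, -0.45 and -0.35, and all of them passed as lower when Rpt3+/+ 1 was left out, at -0.85 (adjusted p = 0.0016), -0.67 (adjusted p = 0.0036) and -0.51 (adjusted p = 0.021). Lower calls also rose over all genes without that array, to 1453 of 14322 from 967 of 14732. Sars (seryl) had -0.22, and Gars (glycyl), Dars (aspartyl), Mars (methionyl), Aars (alanyl) and Qars (glutaminyl) lay between -0.09 and -0.03. Nars (asparaginyl) had 0.13, Eprs (glutamyl-prolyl) 0.15 and Rars (arginyl) 0.36. The 95% intervals of the 39 members reached, in the median, 0.33 log2 units to each side of the estimate.

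The synthetases shared a pattern over the arrays of a group. Rpt3+/+ 1 had the lowest Rpt3+/+ value in 16 of 18 synthetases (88.9%), against 44.7% of 14681 genes measured on every array, and 8 of the 21 other members. Rpt3-/- 1 had the lowest Rpt3-/- value in 13 of 18 (72.2%), against 35.2% of all genes. The Rpt3+/+ 1 array had the highest share of probes above background (74.5%) and the highest median background-subtracted intensity (114.5), and the part of this in the pattern was not tested.

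Synthetases that sit in the multisynthetase complex (Dars, Eprs, Iars, Kars, Lars, Mars, Qars and Rars) had 2 of 8 higher and 0 lower in limma (2 and 1 unadjusted), and the 10 others had 2 higher and 2 lower. Of all tested genes 12.7% were higher and 6.56% lower. With so few genes the 2 groups of synthetases cannot be told apart by these counts, and their difference was not tested. Of 6 further cytosolic synthetase and scaffold genes, 1 was higher and 2 were lower. Aimp2, the scaffold protein that holds the complex together, had 9.62, 9.88 and 10.15 in Rpt3-/- and 11.48, 11.24 and 11.23 in Rpt3+/+ muscle. The groups stood more than 1 log2 unit apart (-1.44 ± 0.16 SE, adjusted p = 0.00029), while the other scaffold genes Aimp1 and Eef1e1 had log2 fold changes of 0.33 and -0.06 and did not pass. Tarsl2, a second threonyl-tRNA synthetase gene, was lower (-0.87, adjusted p = 0.0010), and Farsa, the alpha subunit of the phenylalanyl enzyme, was higher by 0.46 log2 units (adjusted p = 0.045). The call for Farsa, the 1 higher gene of its list, was lost without any 1 of the Rpt3-/- arrays, without Rpt3+/+ 3, with the mean of probes, with no filter on dim probes and with either other background correction.

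Mitochondrial synthetase genes, which are encoded apart from their cytosolic counterparts, had 0 of 17 higher and 2 lower in limma, with a median log2 fold change of -0.18. At an unadjusted p under 0.05 limma had 1 higher and 3 lower, and the study's unpaired test 0 and 2. The 2 were Ears2 (9.62 ± 0.02 in Rpt3-/- and 10.39 ± 0.15 in Rpt3+/+ muscle, SD, n = 3 each, adjusted p = 0.0026) and Cars2 (6.98 ± 0.09 in Rpt3-/- and 7.54 ± 0.23 in Rpt3+/+ muscle, adjusted p = 0.023). By amino acid, cysteine was the only one of 14 for which both genes passed, and both Cars and Cars2 were lower. Cars lost its call without Rpt3-/- 1 or Rpt3+/+ 3. The count of lower mitochondrial genes was 1 without any 1 of the Rpt3-/- arrays or without Rpt3+/+ 3, and 5 without Rpt3+/+ 1. Vars2, Lars2, Hars2 and Yars2, partners of the other called synthetases with a mitochondrial gene, had log2 fold changes between -0.28 and -0.03 and did not pass.

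Other known ATF4 targets, 25 genes outside the members of which 21 were tested, had 4 higher and 2 lower (19.0% and 9.52%; 5 and 4 unadjusted), with a median of 0.03. The counts were 2 and 3 of the 15 genes above background on all 6 arrays, 4 and 4 without Rpt3+/+ 1, and 2 and 2 of 19 genes without Rpt3-/- 1 or Rpt3-/- 3. Gdf15, a secreted stress hormone, had 7.96, 8.65 and 8.67 in Rpt3-/- and was near background on all 3 Rpt3+/+ arrays, so that it was at least 3.81-fold higher in Rpt3-/- muscle (adjusted p = 6.0e-05). It is 1 of the 4 and entered the test through the Rpt3-/- arrays alone, where it is high. Eif4ebp1, which restrains cap-dependent translation, had 10.51 ± 0.16 in Rpt3-/- and 8.97 ± 0.18 in Rpt3+/+ muscle (SD, n = 3 each; 1.54, adjusted p = 0.00012). These values stood beside lower transaminase genes. Gpt2, the mitochondrial alanine transaminase, had 10.51, 10.24 and 10.42 in Rpt3-/- and 12.26, 12.37 and 12.50 in Rpt3+/+ muscle (-1.99 ± 0.13 SE, adjusted p = 1.7e-05), and Got1, the cytosolic aspartate transaminase, had 8.94, 9.49 and 9.61 in Rpt3-/- and 10.50, 10.89 and 11.09 in Rpt3+/+ muscle (-1.48 ± 0.20 SE, adjusted p = 0.00094). Both are abundant enzymes of muscle metabolism, and neither pair of groups overlapped.

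The endoplasmic reticulum chaperones and targets of XBP1 or ATF6, the other arms of the unfolded protein response, had 3 of 11 higher and 0 lower in limma (4 and 0 unadjusted), with a median of 0.33. These were Xbp1 (0.58, adjusted p = 0.030), Pdia4 (0.54, adjusted p = 0.047) and Creld2 (0.46, adjusted p = 0.029). Hspa5 (BiP), the main chaperone of this compartment, had a log2 fold change of 0.05 and did not pass. These calls were not firm. Of the 11 genes 0 passed without Rpt3-/- 2, Rpt3-/- 3 or Rpt3+/+ 3, or under background subtraction in place of normexp, 1 passed without Rpt3-/- 1, and 5 passed without Rpt3+/+ 2. Immediate early genes, which rise with tissue handling and of which Atf3 is often counted as one, had 1 of 10 higher and 2 lower (4 and 2 unadjusted), with a median of 0.34, and 3 were higher without Rpt3-/- 2 or Rpt3+/+ 2. With every array kept, the higher gene was Ier3, by 4.01-fold (limma adjusted p = 3.2e-05). The lower genes were Nr4a1, by 2.22-fold (adjusted p = 0.013), and Dusp1, by 1.99-fold (adjusted p = 0.00069). The summed intensity of the list was 4615 to 5574 in Rpt3-/- and 4818 to 5246 in Rpt3+/+ muscle. Changes in opposite directions can cancel in a sum, so this overlap does not show that the genes were unchanged. The part of tissue handling in the change of Atf3 was not tested.

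**Figure D4:**
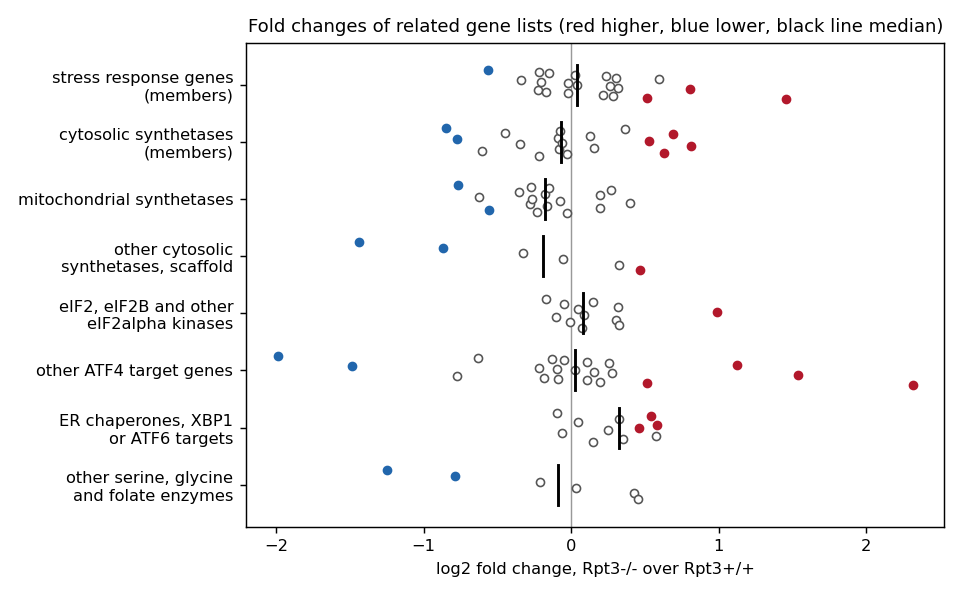
Log2 fold changes, Rpt3-/- over Rpt3+/+ (x axis), of single genes in the 2 member lists (top) and in 6 related lists (below); each point is a gene, red points were higher and blue points lower at an adjusted p under 0.05, and the black line is the list's median. Medians run from -0.19 in the other cytosolic synthetase and scaffold genes to 0.33 in the chaperone list.

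The split between directions depended on scaling. With each array centred on its median in place of quantile normalization, 10 members were higher and 2 lower, beside 2556 and 600 of all genes, where the normalization used here gave 1870 and 967. With each array centred on Actb, which was itself 0.45 log2 units higher in Rpt3-/- muscle (adjusted p = 0.029), the median of all genes moved to -0.72 and that of the members to -0.54. Then 1 member was higher and 20 lower, beside 329 and 10328 of all genes. Under that centring Ddit3 and Hars had log2 fold changes of -0.11 and -0.04, and of the 7 higher members Ppp1r15a alone stayed called.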

How the data were processed

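Spot intensity, local background intensity and a quality flag were read from the deposited scanner files, which the authors made with CodeLink Expression Analysis 5.0.0.31312 and which were not normalized between arrays. A deposited value table, in which background-subtracted intensity had been quantile normalized, served as an alternative. Gene names came from the platform's annotation (21615 of 34967 transcript probes with 1 symbol, 681 with several and left unnamed, 12671 not listed, 536 of these named by RefSeq accession). The background was corrected by normexp (offset 50), transcript probes were quantile normalized, the 1260 control spots were left out, and log2 values were fitted with lmFit and eBayes in limma 3.58.1 (R 4.3.3), 3 Rpt3-/- against 3 Rpt3+/+ arrays, with Benjamini-Hochberg adjustment over all 14732 genes above background on at least 3 arrays. Where a gene had several probes, the brightest was used. Lower bounds ("at least N-fold") set the bright group's mean against the mean, per array, of the higher of the dim probe's signal and the lowest signal above background. The script was tested on simulated data, with 50 genes changed in each of 4 ways. Of genes raised or lowered 2-fold, 46 and 50 were recovered, and of those raised or lowered 1.5-fold, 9 and 21. Far fewer genes were changed there than were called in the real comparison (1870 higher and 967 lower), which makes the adjusted threshold stricter in the simulation. These shares are therefore not the power of the real comparison. A member that did not pass may still differ by about 1.5-fold. Tables and promoter windows were made with Python 3.11.15. The number of arrays limits the precision.

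Each measured member was named, with its value on each array where it was called and for Atf4, Ddit3, Trib3, Asns and Chac1, and arrays of other members were added after their values were seen. From each related list up to 4 called genes with the largest change were named, and the other genes named from these lists were chosen after their values were seen. The members and the lists were chosen with earlier results of these data known. Alternatives changed the background correction, the normalization, the filter, the probe rule and the test, and left out each array; keeping the control spots in the normalization was added after the data were seen. The methods' test is the unpaired test the study names, run on the same values.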

Additional observations from a re-analysis of the deposited data

How the results depend on the processing

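Of the members, 7 were higher and 3 lower. Centred on Actb these were 1 and 20, beside 329 and 10328 of all 14732 genes. The methods' test called 3 higher (Atf3, Ppp1r15a and Kars) and 1 lower (Aldh1l2) after Benjamini-Hochberg adjustment, and 11 higher unadjusted. Over all genes that test called 940 higher and 427 lower after adjustment, and 2502 higher unadjusted. With 1 array left out at a time the counts were 4 to 8 higher and 1 to 6 lower, the extremes coming without Rpt3-/- 3 or Rpt3+/+ 3 (4 higher), Rpt3+/+ 2 (8), Rpt3-/- 1 or Rpt3+/+ 3 (1 lower) and Rpt3+/+ 1 (6). Over all genes these runs gave 1087 to 2314 higher and 390 to 1453 lower. With the replicate number as a block 8 members were higher and 4 lower, beside 1722 and 873 of all genes. In the related lists the other ATF4 targets then had 3 higher and 4 lower, the chaperones 1 higher and Farsa's list 0 higher. Deviations of same-numbered arrays correlated at 0.13, -0.44 and 0.098, so the numbers were not taken as pairs. Ddit3, Hars and Shmt2 also lost their calls with background subtraction or an offset of 10.

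Among the settings run, the log2 fold changes of these members changed sign. Atf4 was 0.31 in the authors' table and 0.30 with control spots kept. Eif2ak2 was 0.34 as a mean of probes. With median centring Aars was 0.24, Atf4 0.31, Cebpb 0.041, Dars 0.19, Ddit4 0.14, Gars 0.17, Mars 0.0039 and Qars 0.17. Centred on Actb, Asns was -0.46, Atf5 -0.33, Ddit3 -0.11, Eif2ak4 -0.54, Eprs -0.33, Hars -0.037, Mthfd2 -0.40, Nars -0.40, Phgdh -0.50, Ppp1r15b -0.34, Psat1 -0.50, Rars -0.31, Sesn2 -0.73 and Slc3a2 -0.0067. With 1 array left out Atf4 ranged from -0.080 to 0.049, Ddit4 from -0.41 to 0.24, Sesn2 from -0.084 to 0.21, Psat1 from -0.092 to 0.15, Nars from -0.022 to 0.26 and Qars from -0.16 to 0.067. The sign for Phgdh rests on signal near background in Rpt3+/+. Of these Ddit3 and Hars alone had been called, and the cause was not tested. Signal near background limits Gdf15 to a bound, leaves Slc7a5 and Slc7a11 without a value and leaves Phgdh without a direction.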
